A study of Mus musculus with 34 samples.

Results

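The CC chemokine genes that lie in 2 clusters on mouse chromosome 11 were read from ChIP-seq peak lists of bone marrow-derived dendritic cells (BMDCs). The genes are Ccl2, Ccl7, Ccl11, Ccl12 and Ccl8, called here the Ccl2 group, and Ccl5, Ccl9, Ccl6, Ccl3 and Ccl4, called the Ccl5 group, which makes 10 of the 21938 annotated protein-coding genes. They were chosen by name and position, not by their peaks, though with earlier results of these data known. For every gene the promoter reached 2.5 kb up and down from the first base of its longest transcript, and each group was also read over its whole span with 50 kb added at both ends. In the mm10 build (GRCm38) the Ccl2 group window is chr11:81985571-82166799 (181 kb) and the Ccl5 group window is chr11:83475778-83714683 (239 kb), with 1.41 Mb between them. The Ccl2 group window holds 6 protein-coding genes, of which 1, Gm17268, lies antisense across Ccl2 and starts inside the interval between Ccl2 and Ccl7. The Ccl5 group window holds 10 protein-coding genes, the other five being Taf15, Heatr9, Rpl9-ps1, Wfdc17 and Wfdc18.

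The BMDCs came from C57BL/6 mice given as 8 weeks old. Control cells (WT) carried CreER alone and CTCF-deficient cells (KO) carried CreER with both Ctcf alleles floxed, CreER being expressed from the Rosa26 locus. Bone marrow of both genotypes was grown for 6 days in GM-CSF, and 4-OH tamoxifen was present on the first day in all cultures, controls included, after which CD11c+ cells were taken. Cells were left untreated or given 100 ng/ml LPS for 3 h (WTLPS, KOLPS), while the STAT5 libraries, made only without LPS, followed a 15 min pulse of GM-CSF. There were 30 peak lists, 1 for each antibody and condition: 4 each for p65 (RelA), CTCF, SMC1, H3K4me3, H3K27ac, H3K4me1 and H3K27me3, and 2 for STAT5. The study describes 2 biological replicates per condition, but each condition has a single list, so no difference between conditions can be set against a spread between replicates and none was tested. Intervals below cover counting error only, and those of shares treat neighbouring peaks as separate draws. Where 4 values are given without labels, they follow the order WT, WTLPS, KO, KOLPS.

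CC chemokines are small secreted proteins that draw leukocytes along a gradient through G protein-coupled receptors. Ccl2, Ccl7 and Ccl12 are monocyte chemoattractants that act through Ccr2, Ccl11 (eotaxin) draws eosinophils through Ccr3, Ccl3, Ccl4 and Ccl5 (RANTES) act on T cells and monocytes, and Ccl6 and Ccl9 are chemokines made by myeloid cells. LPS acts through TLR4, which releases the NF-κB subunit p65 into the nucleus, and several of these chemokines are textbook NF-κB targets. CTCF and the cohesin subunit SMC1 mark sites where chromatin loops are anchored, while cohesin is also found at enhancers. H3K4me3 marks active promoters, H3K27ac active promoters and enhancers, H3K4me1 enhancers, and H3K27me3 genes repressed by Polycomb.

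The sequences below are those under the summits on which the results turn, 50 bases to either side of each summit, from the mm10 genome and written 5′ to 3′ on the strand of the nearest chemokine gene. Capitals mark a match to the motif of the factor itself, searched on both strands. For p65 the sites are the only pair of the Ccl2 window, the promoter summits of Ccl5 and Ccl3, the strongest upstream site of Ccl5, and the only 2 of the 16 WTLPS summits in both windows that held an NF-κB motif match. The last 2 were picked after the matches were known.
Ccl2, 28.5 kb upstream, p65 WTLPS, chr11:82007043-82007143, plus strand: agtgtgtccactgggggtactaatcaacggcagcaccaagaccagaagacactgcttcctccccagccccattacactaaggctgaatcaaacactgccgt
Ccl2, 12.8 kb upstream, p65 WTLPS, chr11:82022746-82022846, plus strand: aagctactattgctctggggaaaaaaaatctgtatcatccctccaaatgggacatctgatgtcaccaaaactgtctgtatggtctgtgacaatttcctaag
Ccl5 promoter, p65 WTLPS, chr11:83530618-83530718, minus strand: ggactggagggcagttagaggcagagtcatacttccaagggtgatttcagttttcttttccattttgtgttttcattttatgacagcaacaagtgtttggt
Ccl5, 6.18 kb upstream, p65 WTLPS, chr11:83536645-83536745, minus strand: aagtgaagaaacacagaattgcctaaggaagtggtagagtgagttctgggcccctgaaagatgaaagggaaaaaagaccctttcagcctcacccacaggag
Ccl5, farthest upstream site, p65 WTLPS, chr11:83550490-83550590, minus strand: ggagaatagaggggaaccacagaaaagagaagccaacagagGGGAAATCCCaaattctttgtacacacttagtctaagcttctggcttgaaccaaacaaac
Ccl3 promoter, p65 WTLPS, chr11:83649453-83649553, minus strand: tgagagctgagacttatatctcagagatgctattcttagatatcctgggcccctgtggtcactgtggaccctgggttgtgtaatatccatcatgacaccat
Wfdc17 intron, 42.8 kb downstream of the Ccl4 start, p65 WTLPS, chr11:83705358-83705458, plus strand: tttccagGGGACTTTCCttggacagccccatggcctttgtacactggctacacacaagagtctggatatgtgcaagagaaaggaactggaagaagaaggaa
A match was found at 2 of the 14 WTLPS p65 summits of the Ccl5 window and at none of the 2 of the Ccl2 window. Over the whole lists, the same stretch held a match at 30% of WT, 11.9% of WTLPS, 23% of KO and 12.6% of KOLPS p65 summits. The summits at the Ccl3 and Ccl5 promoters held none, which says only that those letters are not in that stretch.

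The next sequences are STAT5 summits of WT cells, shown because they lie at 3 of the 5 promoters with a STAT5 peak, and picked after the matches were known. The motif searched was TTCNNNGAA, which reads the same on both strands.
Ccl2 promoter, STAT5 WT, chr11:82035415-82035515, plus strand: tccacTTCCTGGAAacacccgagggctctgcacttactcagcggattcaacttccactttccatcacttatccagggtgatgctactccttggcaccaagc
Ccl12 promoter, STAT5 WT, chr11:82101517-82101617, plus strand: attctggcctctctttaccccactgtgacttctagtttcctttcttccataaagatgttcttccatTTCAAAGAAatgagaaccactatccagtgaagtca
Ccl6 promoter, STAT5 WT, chr11:83593551-83593651, minus strand: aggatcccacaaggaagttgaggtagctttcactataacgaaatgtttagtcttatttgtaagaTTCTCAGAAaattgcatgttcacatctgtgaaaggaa
The motif was present at 3 of 5 WT STAT5 summits of the Ccl2 window and at 4 of 14 of the Ccl5 window, against 37.9% over the whole WT list. In the KO list it was present at 4 of 8 and 6 of 14, against 37.9% over that list. No p65 stretch printed above with an NF-κB match also held a STAT5 match.

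The last pair are CTCF summits at the outer side of the Ccl2 group and between Ccl5 and Ccl9, the 2 positions where a CTCF peak was listed in all 4 conditions.
Ccl2, 39.2 kb upstream, CTCF KO, chr11:81996292-81996392, plus strand: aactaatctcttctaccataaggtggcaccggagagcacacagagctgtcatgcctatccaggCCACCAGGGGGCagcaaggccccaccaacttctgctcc
22.1 kb downstream of the Ccl9 start, CTCF WT, chr11:83556491-83556591, minus strand: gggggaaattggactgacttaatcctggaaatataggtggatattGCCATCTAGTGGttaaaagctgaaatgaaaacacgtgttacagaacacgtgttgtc
The CTCF core motif stood under the KO and KOLPS summits of the first and the WT, WTLPS and KOLPS summits of the second, and under no other CTCF summit of the windows. Over the whole lists it stood at 7.62% of WT, 7.46% of WTLPS, 12% of KO and 14.4% of KOLPS summits.

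The 2 groups differed in what their promoters carried in resting WT cells. H3K4me3, the mark of active promoters, was listed at all 5 promoters of the Ccl5 group and at none of the 5 of the Ccl2 group, in each of the 4 conditions. H3K27me3 was listed only in the Ccl2 group, where it overlapped the promoters of Ccl2, Ccl7, Ccl11 and Ccl8 in WT cells. Of the 30 lists, the number with a peak at the promoter ran from 4 for Ccl11, 5 for Ccl8, 10 for Ccl7, 11 for Ccl12 and 12 for Ccl2 to 17 for both Ccl5 and Ccl4, 19 for Ccl6, 23 for Ccl9 and 24 for Ccl3. The 2 groups did not overlap in that number. Over all protein-coding promoters it had a median of 10 and quartiles of 2 and 15, with 61.9% at 12 or fewer and 15.0% at 17 or more. Among the 10 genes the most alike pairs were Ccl11 with Ccl8 and Ccl9 with Ccl3, which differed in 1 list each.

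**Figure D1:**
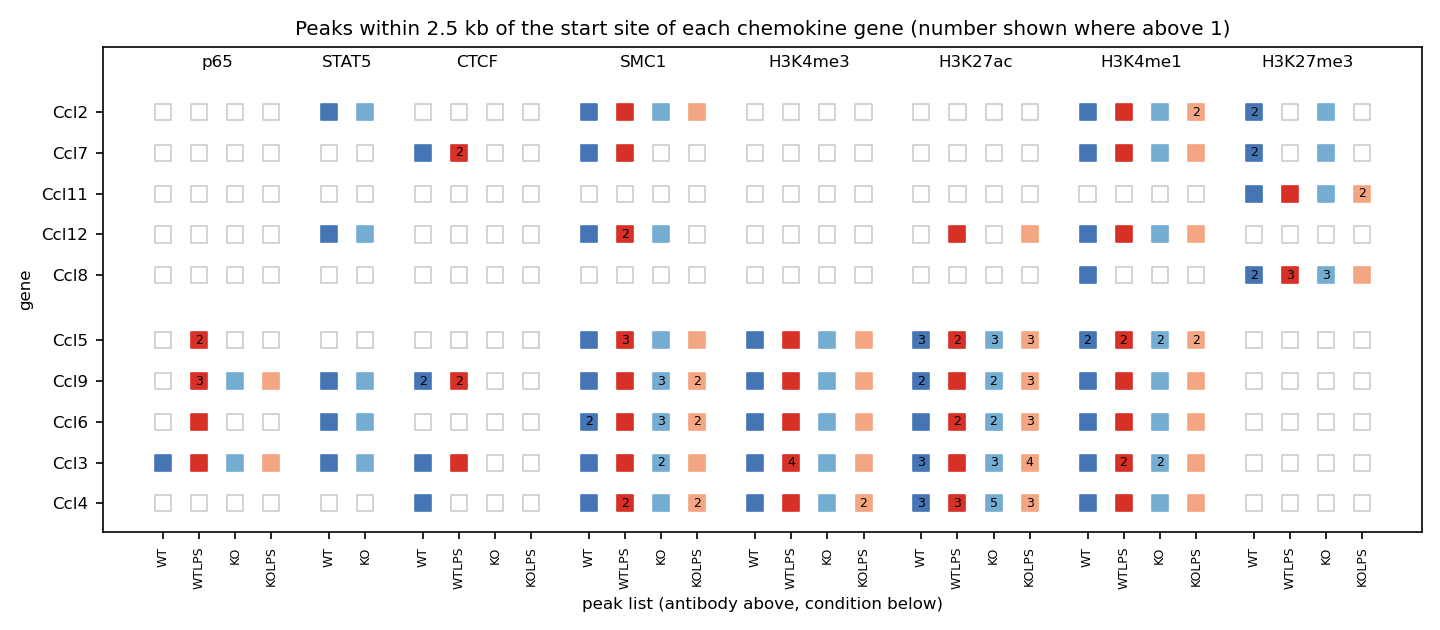
Peaks at the 10 promoters. Each row is a gene, each column 1 of the 30 lists grouped by antibody and condition, a filled cell means at least 1 peak overlapping the promoter (within 2.5 kb of the start site), and a number gives the peaks where there were more. The lower 5 genes, the Ccl5 group, are filled for H3K4me3 and H3K27ac throughout, whereas H3K27me3 is filled only in the upper 5.

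p65 was found at the promoters of the Ccl5 group and at no promoter of the Ccl2 group in any condition. In WT cells only Ccl3 carried a p65 peak (1 of 10 promoters, against 0.501% of all protein-coding promoters). After LPS 4 of 10 did, Ccl5 with 2 peaks, Ccl9 with 3, Ccl6 with 1 and Ccl3 with 1, against 2.86% of all promoters. In KO cells Ccl9 and Ccl3 carried 1 each without LPS and the same pair carried 1 each with LPS, against 0.369% and 1.95% of all promoters. Ccl4, which lies next to Ccl3 and is transcribed away from it, carried none.

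A p65 peak listed with LPS and not without it was found at 3 of 10 members in WT (Ccl5, Ccl9 and Ccl6), against 2.39% of all promoters, and at 0 of 10 in KO, against 1.65%, a background too low for a count of 0 to be read as a difference. Of the 4 member promoters with a WTLPS peak, 2 had none in KOLPS (Ccl5 and Ccl6), while 67.9% of all promoters with a WTLPS peak had none in KOLPS. The KO and KOLPS peaks counted for Ccl9 had their summits 2391 and 2352 bp upstream, near the edge of the promoter as taken here, and with promoters of 1 kb the members with a peak numbered 1 in KO and 1 in KOLPS.

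Ccl3, which encodes the chemokine MIP-1α, held the p65 summit with the most fragments of either window in every condition. Here and below, the fragments over a summit were recovered from the fold enrichment and p of the list, and a ratio between conditions is scaled by the background coverage of each library. Without LPS its lead was within counting error, the site 13.9 kb upstream of Ccl5 having 15 fragments in WT and 14 in KO. The Ccl3 summit lay 97, 148, 262 and 182 bp upstream of the start. It was covered by 16 fragments in WT, 52 (95% exact Poisson interval 38.8 to 68.2) in WTLPS, 15 in KO and 41 (29.4 to 55.6) in KOLPS. The libraries with LPS were thus above those without in both genotypes, and their intervals excluded the counts without LPS. The scaled LPS ratio was 2.71 (1.52 to 5.08) in WT and 2.36 (1.28 to 4.59) in KO, and the KOLPS to WTLPS ratio was 0.826 (0.535 to 1.27). The Ccl3 peak was stronger by fold enrichment than 98.2% of the WTLPS list and 98% of the KOLPS list, at fold enrichments over background of 28.6 and 23.1.

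At Ccl5, p65 was spread over sites from the promoter to a site centred 19.9 kb upstream, and most of these were in the WTLPS list alone. Overlapping p65 peaks of the 4 lists were joined into sites, which gave 6 for Ccl5. The pair at its promoter had 17 fragments each in WTLPS, the summit of one 150 bp upstream of the start and the centre of the other 1.75 kb upstream, and no peak in the other three lists. A site centred 4.35 kb upstream (20 fragments) and one 19.9 kb upstream (12 fragments) were also in WTLPS alone. The site 6.0 kb upstream had 30 fragments (20.2 to 42.8) in WTLPS and 10 (4.80 to 18.4) in KOLPS, a scaled ratio of 0.349 (0.152 to 0.733). It was the only 1 of 7 sites listed both in WTLPS and KOLPS whose interval lay wholly under 1. Its summit lay 6177 bp upstream in WTLPS and 5848 bp upstream in KOLPS, so these counts do not share 1 position. The site 13.9 kb upstream, which STAT5 also occupied, was listed in all 4 conditions with 15, 21, 14 and 12 fragments, a KOLPS to WTLPS ratio of 0.598 (0.268 to 1.27).

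At Ccl9 the p65 peaks ranged over the middle and low part of the lists, and at Ccl6 the only peak was near the bottom. Ccl9 had sites in WTLPS alone 6.11 kb and 0.18 kb downstream of its start and 1.16 kb upstream, with 13, 8 and 13 fragments, the 8 being stronger by fold than 7.87% of the WTLPS list. A site 2.45 kb upstream was listed in WTLPS with 15 fragments, in KO with 12 and in KOLPS with 17, a KOLPS to WTLPS ratio of 1.19 (0.557 to 2.55), and was stronger than 62.6% of the WTLPS list and 69.4% of the KOLPS list. The Ccl6 promoter had 7 fragments in WTLPS, stronger than 2.23% of the list, and no peak elsewhere. Scaled to the KOLPS coverage, the Ccl6 count would lie under the fewest fragments of any KOLPS peak, 7, so a loss there was not detectable at this depth.

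Away from the starts, a site 8.45 kb downstream of the Ccl3 start had 19 fragments in WTLPS and 14 in KOLPS, a ratio of 0.771 (0.358 to 1.62). A site 42.8 kb downstream of the Ccl4 start, in an intron of Wfdc17, had 17 fragments and was in WTLPS alone. It is one of the 2 sites printed above with an NF-κB match.

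In the Ccl2 window p65 was found only upstream of Ccl2, at distal sites. A site 28.5 kb upstream of Ccl2 had 27 fragments (17.8 to 39.3) in WTLPS and 19 (11.4 to 29.7) in KOLPS, a scaled ratio of 0.737 (0.387 to 1.38). A second site 12.7 kb upstream had 18 (10.7 to 28.4) and 9 (4.12 to 17.1), a ratio of 0.524 (0.207 to 1.23). Neither had a peak without LPS in either genotype, and both ratio intervals included 1.

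**Figure D2:**
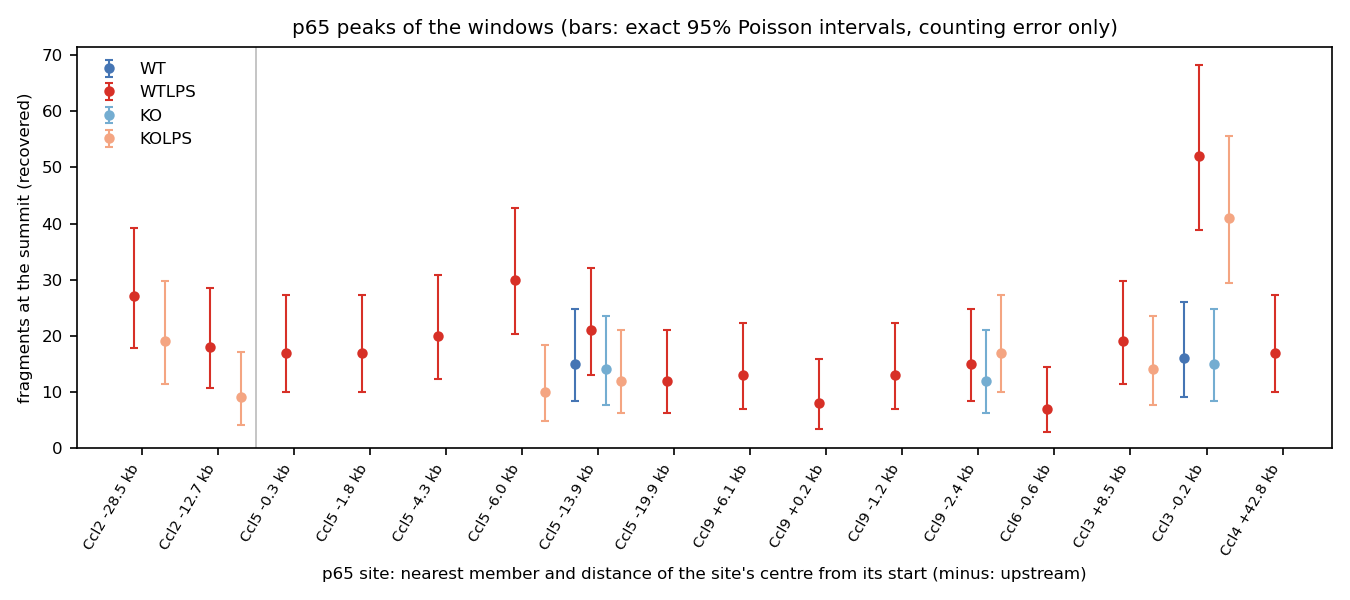
Fragments under the p65 summit at each of the 16 sites, with exact Poisson 95% intervals, by condition. The horizontal position labels give the nearest gene and the distance of the site centre from its start in kb (minus is upstream), and a missing point means no peak in that list. The Ccl3 promoter stands highest with 52 fragments in WTLPS and 41 in KOLPS, and 9 of the 16 sites have no KOLPS point.

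Counted over the windows, p65 peaks numbered 0, 2, 0 and 2 for the Ccl2 group and 2, 14, 3 and 5 for the Ccl5 group. In WTLPS this was 5.86 peaks per 100 kb in the Ccl5 window and 1.10 in the Ccl2 window, against 0.201 over the genome. Per 100 kb the Ccl5 window had 29.2, 29.2, 67.9 and 32.6 times the genome's own density, and the Ccl2 window 0, 5.50, 0 and 17.2 times. The whole lists held 781, 5465, 504 and 1752 peaks, so the lower KOLPS count in the Ccl5 window was not a lower density relative to its list. The p65 lists start at −log10 p of 6.05, 4.35, 5.46 and 5.39, and with all of them started at 6.05 the Ccl5 window counts were 2, 13, 3 and 5 and the members with a WTLPS promoter peak 3, Ccl6 being the one lost. All 16 sites had a WTLPS peak, and 9 had none in KOLPS. The 9 had a median of 13 fragments in WTLPS against 21 for those with a KOLPS peak, though the ranges overlapped, sites without a KOLPS peak reaching 20 fragments and those with one going down to 15. Scaled to the coverage of the KOLPS library, 8 of the 9 would still have had at least 7 fragments, the fewest of any peak in the KOLPS list. Of the 14 WTLPS peaks in the Ccl5 window 5 were overlapped by a KOLPS peak (35.7%, 95% Wilson interval 16.3 to 61.2), as were both of the Ccl2 window (34.2 to 100), against 22.7% of the whole WTLPS list. In the other direction all 5 and both KOLPS peaks were overlapped by WTLPS peaks, against 72% of the KOLPS list. WT peaks overlapped 2 of the 14 (14.3%, 4.01 to 39.9) and 0 of the 2, against 13.3% of the whole list. Over the 1240 WTLPS peaks overlapped by a KOLPS peak in the whole list the median scaled ratio was 0.719, with 72.4% under 1, so a ratio under 1 at a chemokine site was the common case.

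The 16 p65 sites lay in chromatin that other lists also marked. In WTLPS all 16 carried an SMC1 peak and 15 carried H3K27ac, against 88% and 75.4% of the whole WTLPS p65 list. In the WT lists, without LPS, SMC1 was present at 15, H3K27ac at 14 and H3K4me1 at 16, against 72.4%, 64.6% and 89.1%. In KO cells SMC1 was present at 12 and in KOLPS at 13, against 66.8% and 65.2%, whereas H3K27ac was present at 15 in both, against 66.2% and 66.3%. STAT5 was found in WT at 6 of the 16, CTCF in WTLPS at 2 and H3K27me3 in WTLPS at none, against 27%, 6.33% and 0.604%. The site 28.5 kb upstream of Ccl2 carried H3K27ac in WTLPS, KO and KOLPS but not in WT.

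STAT5, which GM-CSF activates through JAK2, was found at promoters of both groups in both genotypes. The same 5 promoters carried 1 STAT5 peak each in WT and KO, those of Ccl2, Ccl12, Ccl9, Ccl6 and Ccl3, against 4.08% and 3.4% of all protein-coding promoters. The Ccl6 promoter had 89 fragments in WT and 97 in KO, at fold enrichments of 38.7 and 36.2, stronger than 98.6% and 99% of the lists. The Ccl12 promoter had 59 in WT and 34 in KO. The Ccl3 promoter had 37 and 42, the Ccl2 promoter 17 and 14, and the Ccl9 promoter, where the summit lay in an exon, 15 and 15.

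Because the KO library had the higher background coverage (1.70 fragments per position against 1.33), counts were compared after scaling by coverage. The KO to WT ratio was then 0.849 (0.630 to 1.15) at Ccl6 and 0.449 (0.285 to 0.696) at Ccl12, the lowest of all. Over the windows there were 24 STAT5 sites, of which 19 were listed in WT, 22 in KO and 17 in both. All 17 had a ratio under 1, with a median of 0.740 and a range of 0.449 to 0.949, but the interval lay wholly under 1 at 3 of them. These were the Ccl12 promoter, the site 13.9 kb upstream of Ccl5 (68 fragments in WT and 53 in KO, ratio 0.607, 0.416 to 0.883) and a site 3.58 kb upstream of Ccl4 (33 and 24, ratio 0.567, 0.321 to 0.988). Over the 5270 overlapped peaks of the whole list the median ratio was 0.745 with 83.4% under 1, so the chemokine sites lay near the middle of the list. Of the WT STAT5 peaks in the windows 5 of 5 and 12 of 14 (85.7%, 60.1 to 96.0) were overlapped in KO, against 64.8% of the list, and of the KO peaks 5 of 8 and 12 of 14 were overlapped in WT, against 77.2%.

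Most CTCF peaks of the windows lay outside the member promoters, which take up a small part of the windows, and the density per base was not compared. Of 27 WT CTCF sites 23 had no CTCF peak in KO. At the promoters CTCF was listed in WT at Ccl7 (1 peak), Ccl9 (2), Ccl3 (1) and Ccl4 (1), in WTLPS at Ccl7 (2), Ccl9 (2) and Ccl3 (1), and at none in KO or KOLPS. That is 4, 3, 0 and 0 of 10 members, against 30%, 27.6%, 19.6% and 10.4% of all promoters. The 4 members with a WT peak all lacked one in KO, as did 55.7% of all promoters with a WT CTCF peak.

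Across the windows CTCF peaks numbered 4, 6, 1 and 1 for the Ccl2 group and 23, 19, 3 and 1 for the Ccl5 group. Per 100 kb this was 0.994, 1.67, 0.746 and 1.30 times the genome's own density in the Ccl2 window. In the Ccl5 window it was 4.33, 4.01, 1.70 and 0.986 times. Of the WT peaks 1 of 4 (25%, 4.56 to 69.9) and 3 of 23 (13.0%, 4.54 to 32.1) were overlapped in KO, against 23.7% of the whole list. Of the WTLPS peaks 1 of 6 and 1 of 19 were overlapped in KOLPS, against 17.5%. The background coverage of the CTCF libraries was 3.74, 3.53, 2.95 and 2.82 fragments per position.

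The sites that kept CTCF did so at lower counts. The site 39.2 kb upstream of Ccl2 had 164, 149, 71 and 38 fragments, scaled ratios of 0.549 (0.409 to 0.729) for KO to WT and 0.319 (0.218 to 0.459) for KOLPS to WTLPS. The site between Ccl5 and Ccl9, 22.1 kb downstream of the Ccl9 start, had 83, 57, 28 and 24, ratios of 0.428 (0.268 to 0.663) and 0.527 (0.313 to 0.863). Both fell beyond counting error, and these are the sites whose summits held the CTCF core motif. Sites 16.3 kb and 9.59 kb downstream of the Ccl3 start, between Ccl6 and Ccl3, had 143 and 57 fragments in WT, 72 and 30 in WTLPS and 18 each in KO, with no peak in KOLPS. Strong WT sites with no peak in either KO list lay 14.2 kb downstream of the Ccl3 start (105 fragments in WT, 91 in WTLPS), 14.6 kb downstream of the Ccl11 start (88 and 77), 39.0 kb downstream of the Ccl5 start (84 and 57) and 2.40 kb downstream of the Ccl7 start (58 and 64).

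The cohesin subunit SMC1 was present at more member promoters than any of CTCF, p65 or STAT5. It was listed at 8 of 10 in WT and WTLPS, 7 in KO and 6 in KOLPS, against 31.1%, 27.5%, 22.1% and 14.2% of all promoters, and Ccl11 and Ccl8 had none in any list. Ccl7 had it in WT and WTLPS only, with 89 and 97 fragments at a summit 2.49 kb downstream of the start, the position of its CTCF peak. Ccl12 had 31 fragments in WT, 36 in WTLPS, 21 in KO and no peak in KOLPS. The other six kept a peak in all 4 conditions. The Ccl3 promoter had 84, 126, 63 and 53, Ccl9 had 69, 87, 57 and 47, and Ccl5 had 23, 60, 29 and 31. At these genes WTLPS was the highest, whereas Ccl2, with 53, 41, 44 and 27, was highest in WT. At Ccl6 the summits 513 to 520 bp upstream had 56 in WT, 54 in WTLPS and 26 in KOLPS, and the KO peak there had 36, its strongest promoter peak (39) having its summit 2833 bp upstream. At Ccl4 the summits of WT (42), KO (38) and KOLPS (28) lay within 50 bp of each other downstream of the start, while that of WTLPS (38) lay farther downstream, so these values do not share 1 position. The KOLPS library also had the lowest SMC1 coverage (4.49 fragments per position against 5.40, 5.76 and 5.34 in WT, WTLPS and KO).

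At the strongest CTCF sites SMC1 was also lower or not listed in the KO lists. Both sites with CTCF in all 4 lists kept an SMC1 peak throughout, as did 6 member promoters, so presence of a peak alone does not set them apart. At the site 39.2 kb upstream of Ccl2 SMC1 had 208, 167, 41 and 40 fragments, scaled ratios of 0.200 (0.139 to 0.280) and 0.307 (0.212 to 0.436). Between Ccl5 and Ccl9 it had 160, 147, 33 and 28, ratios of 0.209 (0.139 to 0.305) and 0.244 (0.157 to 0.368). The sites 16.3 kb and 14.2 kb downstream of the Ccl3 start had 172 and 110 fragments in WT, 157 and 108 in WTLPS, and no SMC1 peak in KO or KOLPS. At the Ccl3 promoter, where CTCF had 19 fragments in WT and no KO peak, the SMC1 ratio was 0.759 (0.539 to 1.07) for KO to WT and 0.539 (0.384 to 0.749) for KOLPS to WTLPS. Of 23 WT CTCF sites with no KO CTCF peak, 16 carried SMC1 in WT, of which 7 kept an SMC1 peak in KO and 9 did not. The same share over all such CTCF sites of the genome was not computed, so whether 7 of 16 is particular to these windows cannot be told. At the 10 CTCF sites with SMC1 in both WT and KO the ratio had a median of 0.798 and ran from 0.200 to 1.01. Each site takes the overlapping SMC1 peak with the most fragments, so the sites are not all separate measurements. The CTCF sites 0.589 kb and 1.68 kb upstream of Ccl9 share 1 WT SMC1 peak of 69 fragments, its summit 2422 bp upstream. In KO they have 43 and 57 fragments, so the ratio at the nearer site does not compare 1 position.

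**Figure D3:**
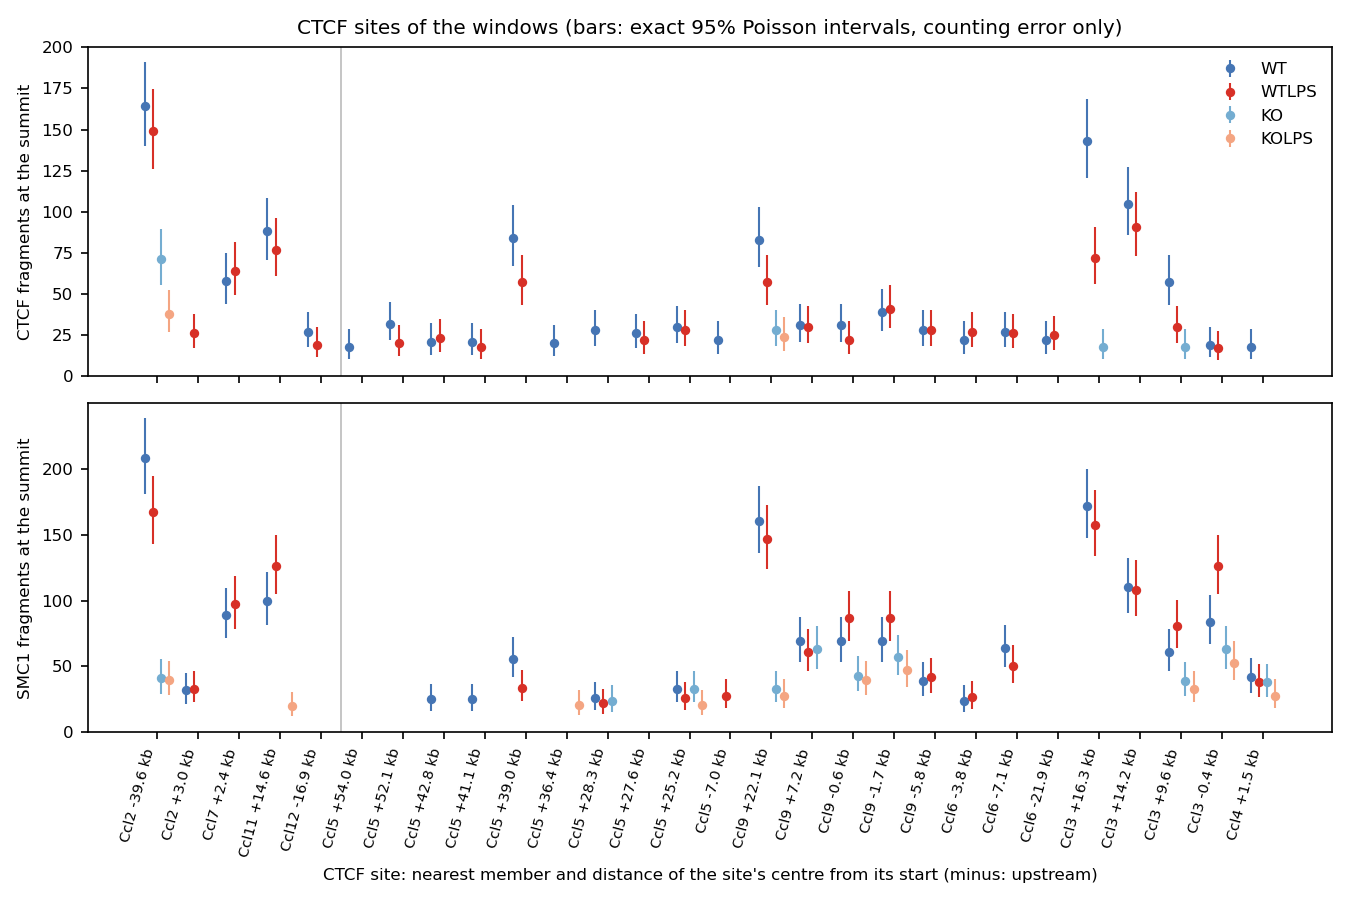
Summit fragments of CTCF (upper) and of SMC1 (lower) at the 28 CTCF sites of the 2 windows, by condition, with exact Poisson 95% intervals. An SMC1 point is the overlapping SMC1 peak with the most fragments, whose summit can lie outside the CTCF site. Neighbouring sites can share such a peak. The labels give the nearest gene and the distance of the site centre, not the summit, from its start in kb (minus is upstream), and a missing point means no peak in that list. CTCF is listed in KO at 4 of the 28 sites and in KOLPS at 2, while SMC1 is listed in all 4 conditions at the Ccl3, Ccl9 and Ccl4 promoter sites, among others.

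The SMC1 site with the most fragments in each window was not the same in the 2 genotypes. In the Ccl2 window it was the CTCF site 39.3 kb upstream of Ccl2 in WT and WTLPS, the p65 site 28.3 kb upstream in KO (67 fragments) and the p65 site 12.8 kb upstream in KOLPS (41 fragments). In the Ccl5 window it was the CTCF site 16.4 kb downstream of the Ccl3 start in WT (172) and WTLPS (157), a site 25.4 kb upstream of Ccl6 in KO (64) and the Ccl3 promoter in KOLPS (53). The order in the KO lists is within counting error, since the Ccl3 promoter and the site downstream of the Ccl9 start had 63 each in KO, and the CTCF site upstream of Ccl2 had 40 in KOLPS.

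Over the windows SMC1 peaks numbered 17, 19, 13 and 10 for the Ccl2 group and 43, 42, 35 and 30 for the Ccl5 group. Per 100 kb this was 4.02, 4.98, 6.52 and 8.72 times the genome's own density in the Ccl2 window and 7.71, 8.35, 13.3 and 19.9 times in the Ccl5 window. Of the WT peaks 12 of 17 (70.6%, 46.9 to 86.7) and 25 of 43 (58.1%, 43.3 to 71.6) were overlapped in KO, against 34.5% of the list. Of the WTLPS peaks 8 of 19 (42.1%, 23.1 to 63.7) and 23 of 42 (54.8%, 39.9 to 68.8) were overlapped in KOLPS, against 23.3%. Peaks of the windows were wider than those of the lists, with medians of 557 and 624 bp against 464 in WT and 500 and 1019.5 bp against 496 in WTLPS, and the part of the width in these overlaps was not tested. With at least 50% of the peak covered, the counts were 10 of 17 (58.8%, 36.0 to 78.4) and 18 of 43 (41.9%, 28.4 to 56.7) in KO, against 26.3%, and 5 of 19 (26.3%, 11.8 to 48.8) and 8 of 42 (19.0%, 9.98 to 33.3) in KOLPS, against 13.9%. The WT shares stayed above that of the list, whereas neither WTLPS share could then be told from it. Split by CTCF, 11 of 20 WT SMC1 peaks with a CTCF peak (55%) and 26 of 40 without one (65%) were overlapped in KO, whereas over the whole list it was 16.3% with and 55.7% without. After LPS it was 9 of 17 with CTCF (52.9%) and 22 of 44 without (50%), against 10.8% and 37.9% over the list. These windows were not tested against others of the same gene density.

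The histone marks set the 2 groups apart more than they did the conditions. H3K4me3 was listed at 5 of 10 member promoters in every condition, all in the Ccl5 group, against 58.1%, 58.6%, 58.7% and 57.7% of all promoters. Fold enrichments can be ranked only within a list, since lists differ in coverage. Ccl6 or Ccl9 led among the 5 in every list, Ccl6 with 35.4 in WT, 31.6 in WTLPS and 24.5 in KO, and Ccl9 with 19.3 in KOLPS, where Ccl6 had 16.0. Ccl5 had the lowest of the 5 in WT (6.77) and in WTLPS (12.2), and Ccl4 the lowest in KO (4.64) and KOLPS (7.99). H3K4me3 peaks in the Ccl5 window numbered 14, 16, 6 and 8, and in the Ccl2 window none. The Ccl5 window peaks were wider in the KO lists, with median widths of 1044, 732, 3194 and 1774 bp. The bases covered there differed less than the counts, at 8.27%, 9.34%, 6.33% and 6.69%, against 1.61%, 1.46%, 1.68% and 1.31% of the genome.

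H3K27ac was listed at all 5 Ccl5 group promoters in every condition. In the Ccl2 group it was listed only at Ccl12 and only after LPS, with 14 fragments in WTLPS and 6 in KOLPS at fold enrichments of 6.83 and 3.89. Members with a peak thus numbered 5, 6, 5 and 6, against 45.2%, 42.1%, 45.6% and 41.8% of all promoters. Over the windows, H3K27ac covered no base of the Ccl2 window in WT and 2.46%, 0.749% and 2.21% of it in the other three, in 0, 10, 6 and 15 peaks. In the Ccl5 window it covered 39.6%, 50.2%, 35.7% and 39.6%, against 2.24%, 2.19%, 1.52% and 1.19% of the genome. The Ccl5 window was therefore covered many-fold above the genome in every condition, and the Ccl2 window was above the genome's own level in both LPS lists and below it in both lists without LPS. H3K27ac peaks in the Ccl5 window numbered 69, 57, 110 and 103, more in the KO lists although fewer bases were covered in KO than in WT. The H3K27ac libraries had a background coverage of 1.17, 1.20, 0.748 and 0.801 fragments per position. The part of this in the bases covered was not tested.

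H3K4me1, the enhancer mark, was listed at Ccl2, Ccl7, Ccl12 and the 5 genes of the Ccl5 group in every condition, at Ccl8 in WT only, and at Ccl11 in none. Members with a peak numbered 9, 8, 8 and 8, against 57.7%, 58%, 57.5% and 47.1% of all promoters. It covered 49.1%, 47.4%, 41.0% and 31.8% of the Ccl2 window and 70.1%, 69.5%, 68.6% and 53.3% of the Ccl5 window, against 9.50%, 9.65%, 8.52% and 5.45% of the genome. Hence the Ccl2 window, with little H3K27ac and no H3K4me3, still carried broad H3K4me1.

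H3K27me3 was listed at Ccl2, Ccl7, Ccl11 and Ccl8 in WT and KO and at Ccl11 and Ccl8 alone in WTLPS and KOLPS, which is 4, 2, 4 and 2 of 10 members against 27.8%, 21.1%, 28.4% and 12.2% of all promoters. With all lists started at the same threshold the numbers were 3, 2, 2 and 2, so the lower number with LPS was then not seen in KO, and at the stricter threshold of −log10 p of at least 5 they were 1, 0, 1 and 1. A promoter with H3K27me3 and no H3K4me3 in WT was found for 4 of 10 members, against 13.6% of all promoters. At Ccl11 the mark covered the whole promoter, 100%, in WT, WTLPS and KO and 31.9% of it in KOLPS. At Ccl8 it covered 75.6%, 23.4%, 65.7% and 17.2%. At Ccl2 it covered 26.0% in WT and 3.90% in KO, and no base with LPS in either genotype. Over the Ccl2 window the mark covered 51.0%, 32.9%, 46.5% and 15.0%, in 35, 31, 32 and 24 peaks, against 4.29%, 2.08%, 4.14% and 0.687% of the genome. Both LPS lists thus covered less than the untreated lists of their genotype, in the window as over the genome. The lists start at different thresholds, at −log10 p of 2.72, 3.03, 2.75 and 3.47. With all 4 started at the highest of these the window was covered to 47.8%, 32.9%, 40.8% and 15.0%, but with only peaks of −log10 p of at least 5 it was covered to 12.2%, 5.06%, 2.78% and 6.95%, where the KO order was turned. The Ccl5 window held no H3K27me3 peak.

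**Figure D4:**
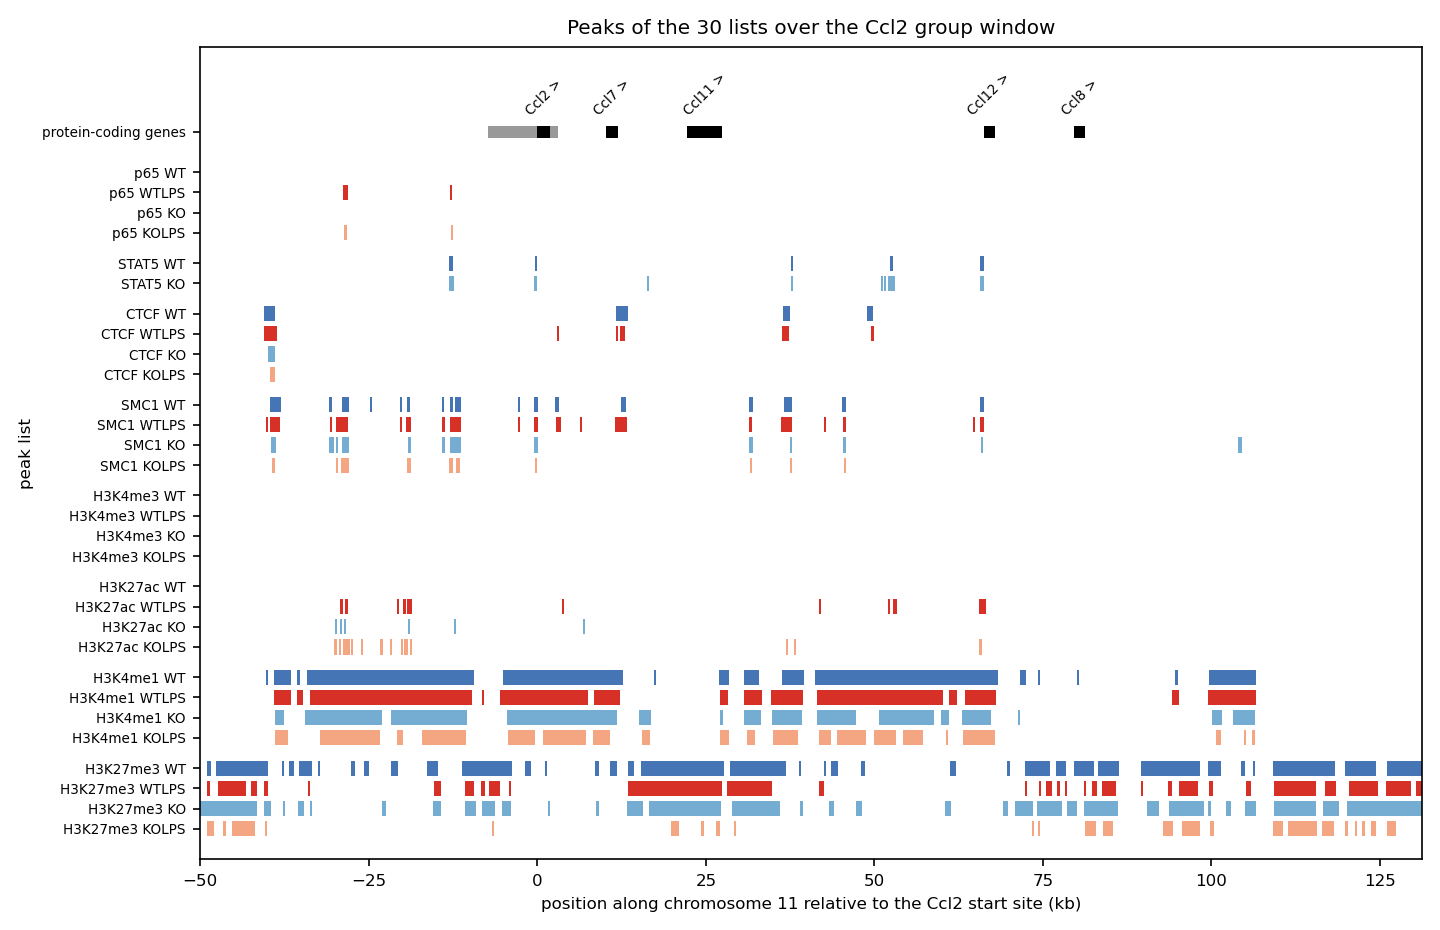
Map of the Ccl2 group window, drawn to scale as distance in kb from the start of Ccl2, with protein-coding genes at the top and below them the peaks of the 30 lists in 1 line per list. The H3K27me3 lines are filled over Ccl11 and Ccl8 (100% and 75.6% of their promoters in WT), and the p65 marks appear only in the LPS lines, 28.5 and 12.7 kb upstream of Ccl2.

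**Figure D5:**
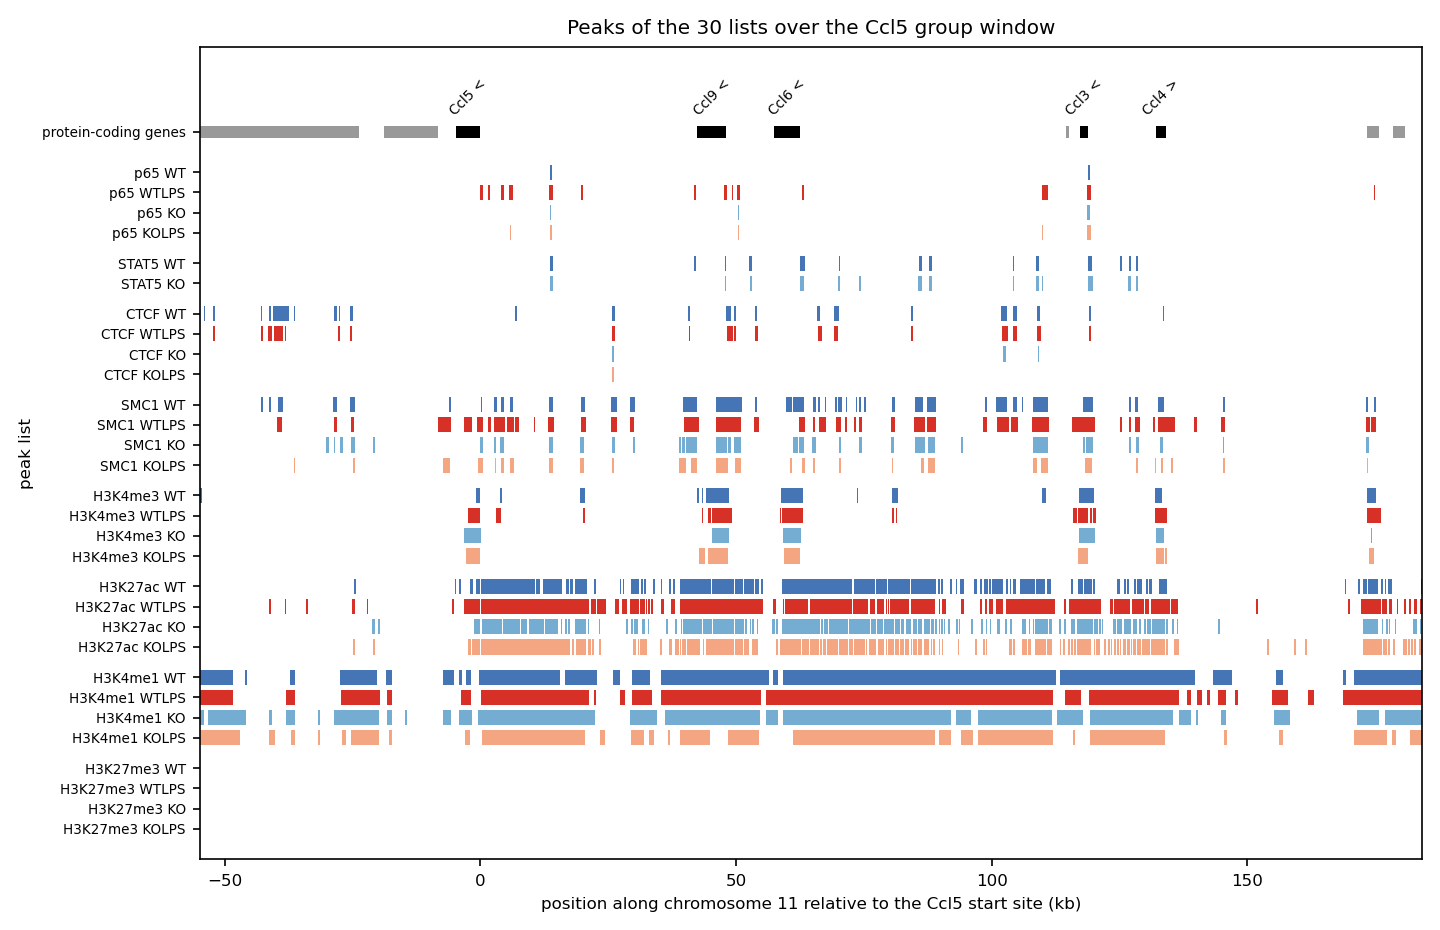
Map of the Ccl5 group window in the same layout, as distance in kb from the start of Ccl5. p65 marks number 14 in the WTLPS line and 5 in the KOLPS line, H3K27ac fills 35.7% to 50.2% of the window, and the H3K27me3 lines are empty.

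The rest of the CC chemokine family was counted the same way, over 11 other CC chemokine genes. p65 was listed in WTLPS at 2 of the 11, against 2.86% of all promoters, and at 0 in WT, KO and KOLPS. The 2 were Ccl17 and Ccl22, which both act on the receptor Ccr4. CTCF was listed at 3, 3, 2 and 1 of the 11, against 30%, 27.6%, 19.6% and 10.4% of all promoters. SMC1 was listed at 4, 5, 2 and 2, against 31.1%, 27.5%, 22.1% and 14.2%, and STAT5 at 2 in WT and 1 in KO, against 4.08% and 3.4%. H3K4me3 was listed at 4 of the 11 in every condition, against 57.7% to 58.7%. H3K27me3 was listed at 2, 2, 2 and 1, against 27.8%, 21.1%, 28.4% and 12.2%.

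For each member the other protein-coding promoters with the most similar set of lists were found over 17920 promoters with a peak in at least 1 list, the measure being the number of the 30 lists in which 2 promoters differ in having a peak. Ccl3 matched Gm16181 in all 30 lists and differed from Bcl2a1b and Birc3, an apoptosis inhibitor gene, in 1. Ccl2 matched Insl5 in all 30. Ccl7 matched Akr1c12, Jsrp1 and Slc48a1 in all 30, and Ccl9 differed in 1 list from 5 genes, of which the first by name are Cxcl2, a CXC chemokine that draws neutrophils, Flot1 and Gm16181. Ccl12 came nearest to Olfr642, at 1 list. The patterns of Ccl8, Ccl6, Ccl4, Ccl5 and Ccl11 were shared at the best value by 11, 19, 37, 57 and 479 genes, so they single out no partner.

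The cell type in the labels was checked by H3K4me3 at marker promoters. In each condition 7 of 9 dendritic and myeloid markers carried it, H2-Ab1 and Cd209a being without, against 57.7% to 58.7% of all promoters. A difference from that share was not tested. Of 23 markers of other cell types 6 carried it in each condition. These were 1 of 4 B cell, 1 of 3 NK cell, 1 of 4 neutrophil and 1 of 3 erythroid markers, and Col1a1 and Pdgfra, both fibroblast markers of the list. None of 5 T cell and 2 mast cell markers carried it. The number was the same in the 4 conditions, and the part of other cells in the chemokine peaks was not tested. Fewer cells with a factor bound and less factor per cell cannot be told apart in these bulk libraries.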

How the data were processed

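ChIP-seq was made by tagmentation and paired-end sequencing, and the 30 peak lists were used (4 input libraries have no list here). Per the labels, the authors' processing notes name BWA 0.7.12, Picard 1.77, MACS2 2.1.2 and deepTools 3.1.3 with the mm10 build, and other versions stand in the study's methods. Reads were trimmed and aligned, and duplicates were removed. The deposited MACS2 lists give each peak's position, its fold enrichment over background (a ratio) and its −log10 p and q values, as the authors' caller wrote them; for the broad H3K4me1 and H3K27me3 peaks these are means over the region. The study describes both calls per replicate and merged replicates, and which of them each list holds is not stated. The STAT5 antibody differs between the labels and the methods (a total or a phosphorylated form), and peak names in the H3K4me1 lists carry an abbreviation of another supplier than the labels.

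From these values the fragments at each summit were recovered by inverting the fold and the Poisson p, with a match tolerance of 0.002. The background coverage of a list was the commonest recovered value among its peaks below −log10 p of 25. Both were recovered for the narrow lists only. The recovery of fragments was tested on simulated data. Ratios between conditions are summit fragments divided by background coverage, with conditional exact binomial 95% intervals. Shares have Wilson intervals. Overlap means at least 1 bp. Summits were searched for motifs within 50 bases on both strands (NF-κB, STAT5 and the CTCF core), in the GRCm38 genome. RefSeq promoter stretches were matched for 5 of the 10 members. Scripts ran under Python 3.11.15 with numpy 2.4.6, pandas 2.3.3, scipy 1.17.1, statsmodels 0.14.6 and matplotlib 3.10.9.

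The members and lists were chosen with earlier results of these data known. All 10 members are named. The peaks named are every p65 and STAT5 peak at a member promoter, the strongest of each narrow list per window, up to 5 strongest p65 peaks of WTLPS and KOLPS, the 3 strongest WT CTCF and SMC1 peaks per window and KO peaks where 5 or fewer. Further CTCF, SMC1 and STAT5 sites were named after their values were seen. Up to 3 genes most alike in pattern are named per member, by alphabet when tied. The CC chemokine receptor genes and 1 sequence are not reported here. With 1 list per condition no test between conditions was run. The alternatives tried were a stricter and an equal threshold, promoters of 1 kb, the starts of all transcripts, flanks of 25 and 100 kb, summits or midpoints inside, thinned coverage and 50% overlap.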

Additional observations from a re-analysis of the deposited data

Results flagged for a closer look

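Of 16 comparisons of the LPS difference between genotypes looked at, 3 went in opposite directions in WT and KO cells. None of these differences was tested, since each condition has 1 list. SMC1 peaks in the Ccl2 group window went from 17 to 19 with LPS in WT and from 13 to 10 in KO, so the KO difference minus the WT difference was −5. H3K4me1 peaks in the same window went from 15 to 14 in WT and from 15 to 20 in KO, a difference of 6, although the bases covered were lower with LPS in both genotypes (49.1% and 47.4% in WT, 41.0% and 31.8% in KO). At the p65 site 13.9 kb upstream of Ccl5, summit fragments per background fragment went from 21.0 to 24.5 in WT and from 19.9 to 14.7 in KO, a difference of −8.68. The LPS ratios there were 1.17 (0.573 to 2.43) in WT and 0.740 (0.313 to 1.72) in KO, so neither was beyond counting error.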

How the results depend on the processing

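No paired analysis was possible because each condition has 1 list and no test was run. Of 506 values under the alternatives, 448 stayed within 1.5 times the value reported and 58 moved. These are counts and covered shares of single lists and counts of peaks shared between lists, not differences between conditions. The remaining values were those differences and the window values of H3K4me3, H3K4me1 and H3K27me3. Of them 452 stayed within 1.5 times, 106 moved, which are not listed below, and 14 changed sign. Taking the starts of all transcripts moved none of 46. The cause of the moves below was not tested, beyond the fewer peaks that a stricter threshold, a smaller window or a stricter overlap leaves.

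With promoters of 1 kb, member counts became 1 for p65 in KO and 1 in KOLPS, 2 for CTCF in WT, and 1 for H3K27me3 in WTLPS and 0 in KOLPS. With the stricter threshold they became 2 for CTCF in WT, 0 for H3K27ac in KOLPS in the Ccl2 group, 0 and 1 for H3K4me1 in KO and KOLPS in the Ccl2 group and 0 in KOLPS in the Ccl5 group, and 1, 0, 1 and 1 for H3K27me3 over the conditions in the same order as before. With an equal threshold H3K27me3 in KO became 2. With the midpoint inside, H3K4me1 became 1 in WT and 1 in KO in the Ccl2 group, and 2, 0, 0 and 0 over the conditions in the Ccl5 group, whose broad peaks are centred elsewhere.

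In the windows, p65 in the Ccl2 group became 1 in WTLPS and 1 in KOLPS with a 25 kb flank and 1 in KOLPS with the stricter threshold. CTCF in the Ccl2 group became 12, 15, 4 and 3 with a 100 kb flank and 0 in KO and 0 in KOLPS with 25 kb. In the Ccl5 group it became 9 in KO and 4 in KOLPS with 100 kb and 1 in KO with the stricter threshold. SMC1 in the Ccl2 group became 27 in WT with 100 kb and 6 in KOLPS with the stricter threshold, under which STAT5 in KO became 3. H3K27ac in the Ccl2 group became 5 peaks and 0.350% of bases in WT with 100 kb, 3 peaks and 0.421% in KO and 9 peaks in KOLPS with 25 kb, and with the stricter threshold 2 peaks and 0.914% in WTLPS, 1 and 0.172% in KO, and 1 and 0.393% in KOLPS. In the Ccl5 group the stricter threshold left 25, 20, 37 and 48 peaks. Peaks shared became, with the stricter threshold, 1 for p65 of WTLPS in the Ccl2 group, 1 for CTCF of WT in the Ccl5 group and 5 for SMC1 of WTLPS in the Ccl2 group. With 50% overlap they became 2 for p65 of WTLPS in the Ccl5 group, 0 for CTCF of WTLPS in the Ccl2 group, and 5 and 8 for SMC1 of WTLPS in the Ccl2 and Ccl5 groups.

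Differences between conditions changed sign in 14 cases. SMC1 peaks, WTLPS minus WT in the Ccl5 group, became 4 with the stricter threshold, 1 with 25 kb and 0.318 with thinned coverage. With the stricter threshold, STAT5 KO minus WT in the Ccl2 group became −1 and H3K27ac KOLPS minus WTLPS in the Ccl2 group −1. H3K27ac KOLPS minus KO in the Ccl5 group became 11 with the stricter threshold and 5 with 100 kb. For H3K27me3 in the Ccl2 group, WTLPS minus WT became 4 peaks with the stricter and 7 with the equal threshold. KOLPS minus KO became 7 and 6 peaks, and 4.17 percentage points of bases with the stricter threshold. KOLPS minus WTLPS became 1 peak and 1.89 points with the stricter threshold. Depth limits the p65 sites, whose libraries had 0.705 to 0.855 background fragments per position.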

Other observations

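Of the 32851 RefSeq promoter stretches in GRCm38, taken as the 250 bases before each start, 3.9% held an NF-κB motif match on either strand. Of the 5 members in that table, Ccl12, Ccl8, Ccl9, Ccl6 and Ccl3, only Ccl9 held one, 35 bases before its start. A WTLPS p65 peak (8 fragments) covers that match, with its summit 370 bp from it, and no p65 peak of the other three lists does. At any of the annotated transcript starts, a choice made after seeing the data, 8 of 9 dendritic and myeloid markers carried H3K4me3 in WT, Cd209a being without.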
